A study of Mus musculus with 564 samples.

Results

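Among 59190 cis-regulatory elements (CREs) of mouse macrophages, 1181 stood out as gaining acetylation after lipopolysaccharide (LPS) while losing it after interleukin-4 (IL-4), and these 1181 are described here. They were selected on measured values. For each stimulus and time, the mean of the 2 DMSO libraries plus 5 was taken on the log2 scale, and the same quantity in unstimulated cells (UT) was subtracted. A CRE was kept when this difference was at least 1 for LPS and at most -0.8 for IL-4 at the same time, either 2 h or 4 h. The condition was met at 2 h by 822 CREs and at 4 h by 698, and 339 met it at both times.

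The cells were bone marrow-derived macrophages (BMDMs), grown from the marrow of wild type male C57/BL6 mice of 6 to 8 weeks. They received DMSO, the solvent, or a clinical kinase inhibitor (CKI) for 1 h and then LPS of E. coli or IL-4, both at 10 ng/mL, for 30 min, 1 h, 2 h or 4 h, or no stimulus. Histone H3 acetylated on lysine 27 (H3K27ac) was profiled by ChIP-seq in 564 libraries, 18 with DMSO (9 groups of 2) and 546 with 1 of 58 CKIs. Each CKI was used at a concentration chosen for its intended target, so doses differ between compounds. The UT libraries carry 0 h in their titles and 4 h without stimulus in their treatment labels, and nothing in the labels says that replicates came from separate cultures, so p-values measure the spread between these samples.

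H3K27ac marks active promoters and enhancers, and it is laid down by the acetyltransferases p300 and CBP, which are brought to DNA by transcription factors. LPS is sensed by TLR4 and acts through NF-kB and AP-1, which together drive the inflammatory program of macrophages. IL-4 acts through JAK kinases and STAT6, drives genes such as Arg1 and Retnla, and is known to dampen part of the inflammatory program.

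The sequences of 6 selected CREs and of 1 with the opposite behaviour are printed to show which letters such regions hold. Each is the central 300 bases of a CRE, read from the plus strand of the RefSeq genome GRCm38.p6, the assembly called mm10 in the sources. Capitals mark matches, on either strand, to 9 short motifs that are spelled out with the motif counts further on. The Fpr1 window was picked for an AP-1 match among the CREs with the widest separation of the stimuli. The Nfkbiz, Ifnb1, Msr1 and Dusp1 windows lay near inflammatory, interferon, microbial sensing and MAP kinase feedback genes. They were picked only among CREs with a match to any of the 9 motifs. The window near Tnf was picked for an NF-kB match, and the Enthd1 window for a STAT match with a gap of 4 bases, from a CRE that gained acetylation after IL-4 and lost it after LPS.
Fpr1, chr17:17871317-17871616, intergenic, 12.5 kb from the Fpr1 start: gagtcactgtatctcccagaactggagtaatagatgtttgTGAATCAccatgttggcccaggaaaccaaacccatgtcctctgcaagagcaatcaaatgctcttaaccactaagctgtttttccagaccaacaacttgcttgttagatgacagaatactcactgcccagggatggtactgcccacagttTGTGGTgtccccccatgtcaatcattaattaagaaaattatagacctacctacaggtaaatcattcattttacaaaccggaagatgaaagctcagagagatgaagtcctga
Nfkbiz, chr16:55754390-55754689, intergenic, 67.6 kb from the Nfkbiz start: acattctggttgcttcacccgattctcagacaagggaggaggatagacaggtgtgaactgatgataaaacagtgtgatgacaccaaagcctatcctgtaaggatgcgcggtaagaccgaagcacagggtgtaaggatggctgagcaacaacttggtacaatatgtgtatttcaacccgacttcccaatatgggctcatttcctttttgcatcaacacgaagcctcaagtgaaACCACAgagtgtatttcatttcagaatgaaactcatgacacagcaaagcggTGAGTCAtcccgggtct
Ifnb1, chr4:88537446-88537745, intergenic, 14.8 kb from the Ifnb1 start: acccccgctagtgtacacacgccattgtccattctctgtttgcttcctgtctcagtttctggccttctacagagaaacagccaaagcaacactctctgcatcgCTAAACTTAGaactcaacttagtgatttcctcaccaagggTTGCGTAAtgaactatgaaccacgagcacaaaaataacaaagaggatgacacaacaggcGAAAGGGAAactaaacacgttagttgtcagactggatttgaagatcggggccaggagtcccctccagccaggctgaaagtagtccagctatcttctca
Msr1, chr8:39651907-39652206, intergenic, 9.38 kb from the Msr1 start: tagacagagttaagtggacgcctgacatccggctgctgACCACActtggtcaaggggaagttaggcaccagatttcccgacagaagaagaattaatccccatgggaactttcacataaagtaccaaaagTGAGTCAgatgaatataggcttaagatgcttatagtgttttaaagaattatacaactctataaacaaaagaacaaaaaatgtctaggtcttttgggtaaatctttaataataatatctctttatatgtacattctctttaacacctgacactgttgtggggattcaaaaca
Dusp1, chr17:26518320-26518619, intronic, 9.95 kb from the Dusp1 start: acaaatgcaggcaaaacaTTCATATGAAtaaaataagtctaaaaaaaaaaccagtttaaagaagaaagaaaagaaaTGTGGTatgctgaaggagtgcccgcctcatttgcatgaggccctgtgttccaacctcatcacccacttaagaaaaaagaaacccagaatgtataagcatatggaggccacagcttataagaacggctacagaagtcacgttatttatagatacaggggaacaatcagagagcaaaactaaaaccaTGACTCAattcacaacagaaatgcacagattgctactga
Tnf, chr17:35219590-35219889, intergenic, 17.7 kb from the Tnf start: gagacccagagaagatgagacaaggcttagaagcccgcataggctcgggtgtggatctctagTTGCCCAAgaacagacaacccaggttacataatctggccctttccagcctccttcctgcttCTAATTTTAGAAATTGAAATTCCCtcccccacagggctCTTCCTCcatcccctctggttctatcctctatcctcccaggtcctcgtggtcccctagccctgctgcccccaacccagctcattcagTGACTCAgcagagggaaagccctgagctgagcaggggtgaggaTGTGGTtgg
Enthd1, chr15:80497760-80498059, intronic, opposite behaviour: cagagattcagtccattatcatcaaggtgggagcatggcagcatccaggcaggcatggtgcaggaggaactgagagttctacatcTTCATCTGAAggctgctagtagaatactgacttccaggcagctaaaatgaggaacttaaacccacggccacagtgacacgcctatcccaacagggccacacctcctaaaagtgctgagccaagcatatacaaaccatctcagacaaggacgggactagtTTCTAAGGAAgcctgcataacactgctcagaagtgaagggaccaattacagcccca
The nearest protein-coding start to the Tnf window was that of Gm16181, at 1.09 kb, and the start of Lta, a cytokine gene beside Tnf, lay at 14.4 kb. The starts of Atp6v1g2 and Nfkbil1, at 15.3 kb and 16.1 kb, were also nearer than that of Tnf. The name Tnf is thus a label for the locus, and this CRE is not counted at Tnf below. AP-1 matches were also present in the Nfkbiz, Msr1, Dusp1 and Tnf windows, while the Ifnb1 window held none. These windows were not picked for AP-1, but each had to hold a motif match, so they do not show how frequent AP-1 is. The shares over all windows are given with the motif counts.

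The libraries of the DMSO and CKI arms were not alike in quality. The deposited values are read counts that the authors normalized and rounded, and their totals over the CREs ran from 5923684 to 6873668 in the DMSO libraries and from 4066894 to 12391410 in the CKI libraries. As a measure of contrast, the top 10% of CREs were set against the bottom 10% by their median values, and this ratio ran from 53.0 to 134 in DMSO libraries and from 3.34 to 67.2 in CKI libraries. Promoters of 8 macrophage genes, among them Csf1r, Spi1 and Adgre1, overlapped a CRE and lay between the 86.9th and the highest percentile of all CREs in the UT DMSO libraries. Of 15 markers of other blood cells, 3 had a CRE over their start, with values of 1 and 0 at Pax5, 8 and 6 at Flt3 and 8 and 11 at Gata2. The CREs nearest to the other 12 lay 351 bp to 65049 bp from the start and held between 0 and 416, the highest near Cd79a, and their part in the results was not tested. In such bulk libraries, fewer cells of a type and less acetylation per cell cannot be told apart.

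The selected CREs lay mostly away from promoters. Only 41 (3.47%) had their centre within 1 kb of a protein-coding start, against 19.3% of all CREs, 9.54% of the 6834 CREs with an LPS gain of at least 1 and an IL-4 change under 0.3 in size, and 7.64% of the 799 CREs with the opposite behaviour, that is an IL-4 difference of at least 1 and an LPS difference of at most -0.8. Of the 1181, 679 were intergenic, 471 intronic, 17 in a UTR and 12 in a coding exon. The median distance to the nearest start was 24660 bp against 13180 bp for all CREs, and 31.3% lay over 50 kb away against 19.7%. Widths ran from 1414 to 15526 bp with a median of 1698 bp.

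Measured against UT in DMSO cells, the loss after IL-4 was seen later than the gain after LPS. The median value over the 1181 CREs was 45 and 40 in the UT libraries. After LPS it was 96 and 108 at 30 min, 142 and 134 at 1 h, 171 and 166 at 2 h, and 195 and 170 at 4 h. After IL-4 it was 42 and 40 at 30 min, 25 and 29 at 1 h, 17 and 18 at 2 h, and 20 and 23 at 4 h. The LPS libraries thus lay above UT from the first time on, whereas those of IL-4 at 30 min lay at the UT level. On the log2 scale the median LPS difference from UT was 1.08, 1.42, 1.61 and 1.66 at the 4 times, and the median IL-4 difference was -0.11, -0.57, -0.97 and -0.90. Over all CREs the median IL-4 difference was 0.10, 0.03, -0.03 and 0.05. At 30 min it was 0.25 at CREs with an LPS gain and little IL-4 change. The selected CREs thus lay below both groups at 30 min of IL-4, though near UT. All these values share the UT libraries that the selection used and are given without a test. Those of the selected CREs at 2 h and 4 h are what the selection fixed.

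**Figure D1:**
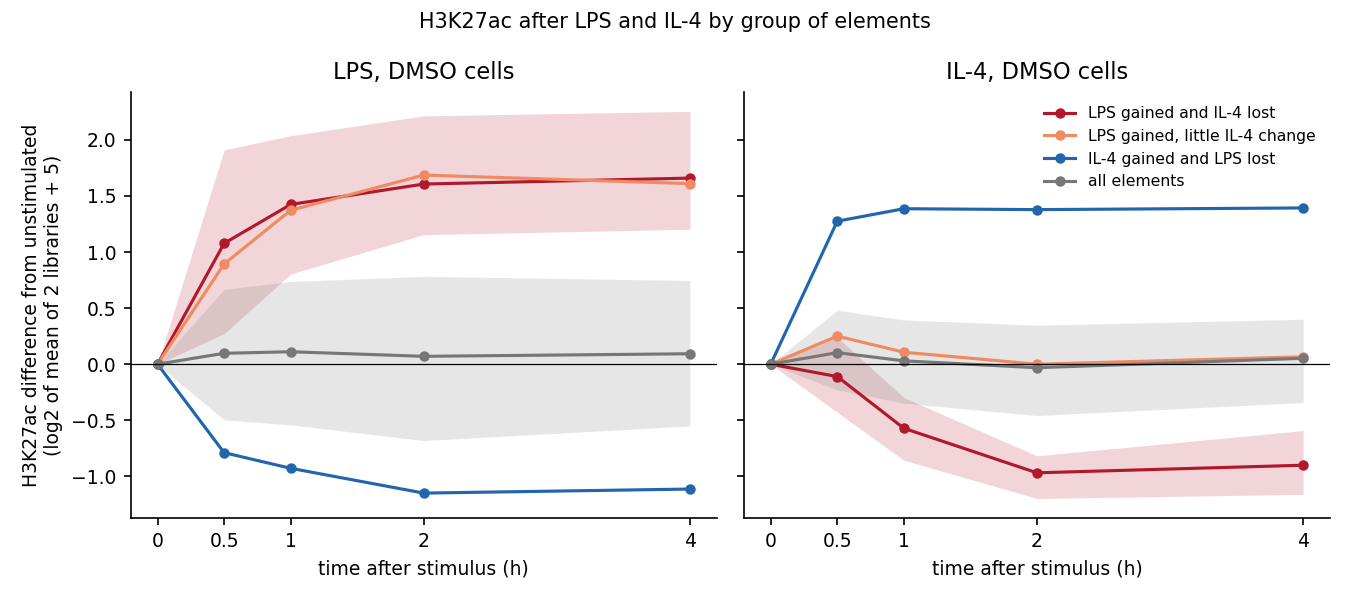
Median difference of H3K27ac from UT in DMSO cells (vertical, log2 of the mean of 2 libraries plus 5) against time after LPS or IL-4 (horizontal, h) for the selected CREs, 2 comparison groups and all CREs, with shading for the interquartile range of the selected and of all CREs. The selected CREs lay at 1.08 after 30 min of LPS and at -0.11 after 30 min of IL-4, and reached 1.61 and -0.97 at 2 h.

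The selection cut through a continuum. CREs near Fam43a, Efna5 and Noct were just inside the LPS threshold, with a log2 difference of 1.00 at 2 h, and CREs near Dusp5, Etv6 and Itga4 lay just outside it at 1.00 after rounding. For IL-4, CREs near Pirb, Cd46 and Sox5 were just inside, and CREs near Sik3, Rap1b and Amer2 just outside, all at -0.80 after rounding. Several of these were low, such as the CRE near Noct with values of 13 and 11 in UT, 26 and 32 after LPS at 2 h, and 5 and 4 after IL-4 at 2 h. Of the 1181, 654 met the condition in each replicate number taken alone and 337 (28.5%) also met it after quantile normalization of the libraries. Replicate 1 alone gave 2104 CREs and replicate 2 alone gave 1180.

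The 30 min and 1 h libraries were not used for the selection. They allowed a direct test of LPS against IL-4 in which no UT library enters the difference. The spread was estimated over all 18 DMSO libraries, among them those used for the selection. Of the 1181 CREs, 1167 had a mean of at least 10 over the DMSO libraries and were tested with limma along with 50587 CREs in all. At 30 min, 620 (53.1%) were higher after LPS at a Benjamini-Hochberg adjusted p under 0.01 and a log2 difference over 1, against 12.4% of all CREs tested, and 25 were lower, against 17.1%. At 1 h, 987 (84.6%) were higher, against 18.1% of all, and 3 were lower, against 16.8%. The median log2 difference was 1.12 at 30 min and 2.04 at 1 h. Among CREs that gained acetylation after LPS with little IL-4 change, 34.6% were higher at 30 min and 61.3% at 1 h, and of the CREs with the opposite behaviour none were higher and 699 were lower at 30 min. In a fit of the 30 min and 1 h libraries alone, 617 of 1159 selected CREs were higher at 30 min, against 12.1% of all. At 1 h this fit gave 979, against 17.6% of all.

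The widening between 30 min and 1 h was itself tested. The LPS minus IL-4 difference was larger at 1 h for 287 of the 1167 CREs (24.6%), against 4.72% of all, and smaller for 3, against 1.40% of all. Of the 1181, 611 were higher after LPS at both times, 376 at 1 h alone, 9 at 30 min alone and 171 at neither, and 14 had no value. The CRE 8.58 kb from Tcp10a moved with time in this way, with a log2 difference of 0.81 ± 0.20 (SE) at 30 min and 2.33 ± 0.20 at 1 h (n = 2 libraries a group, limma adjusted p for the change = 0.00015). A CRE 128.7 kb from Rybp, which encodes a Polycomb subunit, went the other way at first. It held 70 and 81 in UT, 28 and 22 after 30 min of LPS, 84 and 68 at 1 h, 203 and 219 at 2 h and 386 and 295 at 4 h, so that the early LPS libraries lay below UT and the late ones above. After IL-4 it held 46 and 40, 17 and 26, 10 and 13, and 15 and 23 at the same times. Its LPS minus IL-4 difference was -0.68 ± 0.26 at 30 min and 1.63 ± 0.26 at 1 h (limma adjusted p for the change = 1.2e-05). The most negative value at 30 min, -2.71 ± 0.24, belonged to a CRE near Fggy.

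The same early comparison in the CKI arm, with 1 value per compound and chosen after the DMSO result was seen, gave 439 of the 1181 CREs higher after LPS at 30 min over 58 compounds (37.2%, against 4.59% of all CREs) and 726 at 1 h over 57 compounds (61.5%, against 7.62% of all). The calls here needed a log2 difference over 1, as in DMSO cells.

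The CKI libraries were outside the selection and served to ask whether its pattern was present in other libraries. For each compound, the log2 values at 2 h and 4 h were averaged and those of the same compound in UT were subtracted. Over 57 compounds, 1041 CREs (88.1%) were higher after LPS with limma (adjusted p under 0.01, mean log2 change over 0.5), against 21.9% of all CREs, and none were lower. Over 58 compounds, 668 (56.6%) were lower after IL-4, against 12.4% of all, and none were higher. The median change was 1.03 after LPS and -0.55 after IL-4. Both calls were made at 557 CREs (47.2%), against 1.55% of all CREs, 484 were called for LPS alone, 111 for IL-4 alone and 29 for neither. Since both changes use the UT libraries of the compound, LPS was also set directly against IL-4, and 1168 CREs (98.9%) were higher after LPS, against 22.5% of all. CREs with an LPS gain and little IL-4 change in DMSO gave 86.3%, 2.24% and 85.0% in these 3 comparisons, in the order given.

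**Figure D2:**
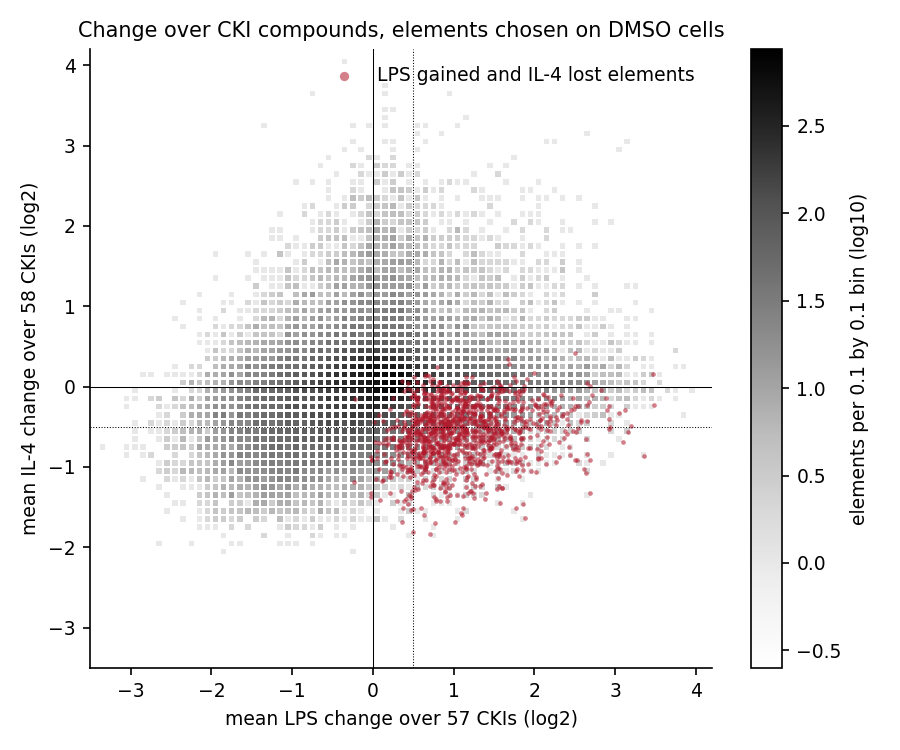
Mean change over CKI compounds after LPS (horizontal, 57 compounds) and IL-4 (vertical, 58 compounds), log2 of 2 h and 4 h against UT; red points are the 1181 selected CREs, grey squares count all CREs on a log10 scale and dotted lines mark the size needed for a call. The red points centre on 1.03 and -0.55, and 557 of them passed both calls.

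How firmly a CRE met the condition in DMSO went with how often it was called in the CKI arm. Of the 339 that met it at both times, 269 had both calls, against 141 of the 483 at 2 h alone and 147 of the 359 at 4 h alone. Of the 654 that met it in each replicate, 405 had both calls, against 152 of the other 527. Of the 337 that also met it after quantile normalization, 231 had both calls, against 326 of the other 844. Among the 41 at promoters, 25 had both calls.

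The widest separation in the CKI arm, ranked by the smaller of the 2 mean changes, was found at 12 CREs that lay near Tcp10a (a pair), Fpr1, Txk, Dynlrb2, Lipg, Acod1, Hivep2, Slc28a2, Tprg, Msr1 and Rybp. Fpr1 encodes a receptor for bacterial formyl peptides, and the CRE 12.5 kb from its start is the first printed above. It held 226 and 201 in UT, 437 and 531 after 30 min of LPS, 925 and 854 at 1 h, 1399 and 1355 at 2 h, and 1370 and 1082 at 4 h. After IL-4 it held 225 and 223 at 30 min, 115 and 137 at 1 h, 82 and 71 at 2 h, and 64 and 62 at 4 h. Every LPS library thus lay above both UT libraries, and every IL-4 library from 1 h on lay below them. In the CKI arm it ran from 38 to 345 in UT (median 181, 73 libraries), from 153 to 972 after LPS at 2 h and 4 h (median 637, 116 libraries) and from 17 to 173 after IL-4 (median 55, 113 libraries), so that the 3 ranges overlapped. Its mean log2 change was 1.86 ± 0.07 (SE, 57 compounds, higher in 57) after LPS and -1.46 ± 0.09 (58 compounds, lower in 55) after IL-4, with limma adjusted p of 9.4e-41 and 2.1e-27.

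The CRE in an intron of Txk, a Tec family kinase gene, held 102 and 100 in UT, 605 and 591 after 2 h of LPS and 54 and 51 after 2 h of IL-4. Its CKI changes were 1.57 ± 0.08 and -1.45 ± 0.10. The CRE 50.2 kb from Lipg, the endothelial lipase gene, held 50 and 54 in UT, 827 and 760 after 2 h of LPS, and 13 and 18 after 2 h of IL-4. It had the largest LPS change of the 12 in the CKI arm, 2.69 ± 0.06, with an IL-4 change of -1.32 ± 0.10. The pair near Tcp10a showed the most negative IL-4 changes, -1.63 ± 0.10 and -1.51 ± 0.08, but 3 and 2 of their 6 sampled 50-base stretches were unique in the genome, so their values can depend on how the mapper placed reads.

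Some of the CREs with the widest separation in DMSO lay in sequence that is not unique. Of the 6 at the top of that order, 1 in an intron of Mid1 had no unique stretch and 1 near Gm13275, in the type I interferon gene cluster, had 1. The Mid1 CRE held 0 and 34 in UT, 0 and 188 after 2 h of LPS and 0 and 0 after 2 h of IL-4, so that its replicates differed more than its groups. Its IL-4 change in the CKI arm was 0.42 ± 0.27 (limma adjusted p = 0.19). The Gm13275 CRE held 0 and 40 in UT, and its CKI changes of -0.23 ± 0.23 and -0.15 ± 0.22 did not pass the test. Over all 1181, 44 CREs had 3 or fewer unique stretches and 3 had none, while 90.4% had all 6 unique, against 93.4% of all CREs.

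Selected CREs were counted near the genes of 5 lists, to be read against 2.00% of all CREs and 8.44% of the 13996 CREs with an LPS gain of at least 1 at 2 h or 4 h. These shares are descriptions without a test, and the lists were chosen with earlier results known. The list of 38 NF-kB inflammatory genes had 277 CREs whose nearest start, within 100 kb, was theirs, and 41 of these (14.8%, or 18% of the 228 with an LPS gain) were selected, at 18 genes. In the CKI arm 34 of the 41 were higher after LPS, 28 were lower after IL-4 and 22 had both calls, with medians of 0.98 and -0.66. Over all 277 CREs of the list, 213 were higher and 11 lower after LPS, and 62 were lower and 24 higher after IL-4. The genes with most selected CREs were Nfkbiz, which encodes the NF-kB cofactor IkB-zeta, with 10, and Acod1, which encodes the enzyme that makes itaconate, and Csf2, which encodes the growth factor GM-CSF, with 4 each. Il12b and Cxcl1 had 3, and Il1a, Il1b, Ptgs2 and Cxcl2 had 2. Tnf, Il6 and Nfkb1 had none.

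The Nfkbiz CRE printed above was an early one. It held 212 and 235 in UT and 1069 and 1214 after 30 min of LPS, and then 784 and 724, 601 and 613, and 455 and 453 at the later times. After IL-4 it held 162 and 101, 63 and 59, 35 and 40, and 39 and 40. The LPS values were highest at 30 min, while the IL-4 values were lowest at 2 h and 4 h. Its LPS minus IL-4 difference was 3.10 ± 0.16 at 30 min and 3.52 ± 0.16 at 1 h (limma adjusted p = 8e-20 and 1.2e-21), and its CKI changes were 1.12 ± 0.05 and -1.35 ± 0.06.

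The CRE 10.2 kb from Acod1 was slower. It held 217 and 184 in UT, 561 and 670 after 30 min of LPS and 1052 and 1015 at 2 h, and after IL-4 it held 210 and 181 at 30 min, 128 and 131 at 2 h and 59 and 51 at 4 h. The IL-4 libraries at 2 h and 4 h lay below the UT pair. Its CKI changes were 1.40 ± 0.05 and -1.32 ± 0.06, with the same sign in 57 of 57 and 58 of 58 compounds, though 3 of its 6 stretches were unique. A wide CRE over Acod1 itself, chr14:103046015-103061540, held 499 and 445 in UT, 1539 and 1914 after 30 min of LPS, and 202 and 198 after 4 h of IL-4. At Cxcl2, a neutrophil chemokine gene, a CRE 1.10 kb from the start held 97 and 88 in UT, 498 and 481 after 30 min of LPS and 24 and 30 after 4 h of IL-4. A CRE 4.19 kb from Nos2, the gene of inducible nitric oxide synthase, was late. It held 98 and 117 in UT, 66 and 90 after 30 min of LPS and 425 and 369 at 4 h, and its LPS minus IL-4 difference was -0.20 ± 0.19 at 30 min and 0.82 ± 0.19 at 1 h (limma adjusted p = 0.38 and 0.00024).

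The list of 34 genes for sensing microbial products had 175 CREs, of which 19 (10.9%, or 30.2% of the 63 with an LPS gain) were selected, at Cd14, Clec4e, Fpr1, Fpr2, Ly96, Msr1, Nod1, Nod2 and Tlr2. All 19 were higher after LPS in the CKI arm and 16 were also lower after IL-4. Over the 175 CREs the LPS calls were 62 higher and 44 lower and the IL-4 calls were 66 lower and 8 higher. Msr1, which encodes a scavenger receptor, had 5 selected CREs, all with both calls. The one printed above held 183 and 214 in UT, 706 and 772 after 4 h of LPS, and 72 and 66 after 4 h of IL-4. At Clec4e, which encodes the lectin Mincle, a CRE 0.55 kb from the start held 221 and 188 in UT, 796 and 880 after 2 h of LPS and 57 and 64 after 2 h of IL-4, with CKI changes of 1.28 ± 0.05 and -1.15 ± 0.07. A larger LPS gain was found at a CRE 12.8 kb from Fpr2, another formyl peptide receptor gene. It held 120 and 92 in UT, 1653 and 1601 after 2 h of LPS, and 33 and 27 after 2 h of IL-4, and its CKI changes were 2.52 ± 0.05 and -0.92 ± 0.08.

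MAP kinase feedback and AP-1 genes held 204 CREs, and 10 of them (4.90%, or 17.2% of the 58 with an LPS gain) were selected, at Dusp1, Spred1, Dusp16 and Fos. In the CKI arm 7 were higher after LPS, 6 were lower after IL-4 and 3 had both calls. Dusp1 encodes a phosphatase that inactivates p38 and JNK, and its 4 selected CREs differed in which call they got. The one printed above held 48 and 49 in UT, 406 and 528 after 2 h of LPS and 15 and 22 after 2 h of IL-4, with CKI changes of 2.03 ± 0.07 and -0.78 ± 0.06. The one 5.25 kb from the start held 558 and 590 in UT, 847 and 895 after 2 h of LPS and 162 and 156 after 2 h of IL-4, with CKI changes of 0.38 ± 0.05 and -1.51 ± 0.04. The LPS change dominated at the first and the IL-4 change at the second.

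The list of 36 interferon genes had 3 selected CREs of 137 (2.19%), close to the 2.00% of all CREs. In the CKI arm 99 of the 137 were higher after LPS. Of the 97 with an LPS gain in DMSO, 3.09% were selected, against 8.44% of all CREs with such a gain. A pair lay at Ifnb1, the interferon-beta gene, and 1 at Irf8. Loci with interferon-linked genes off the list were not counted here. In the locus near Ifit1bl1, Ifit3b and Ifit1bl2, 4 of 4 CREs were selected, and near Ifitm1, Ifitm2, Ifitm3 and B4galnt4 7 of 12. These counts run from the first to the last selected CRE of a locus, so its ends are selected by definition. In the CKI arm all selected CREs of both loci were higher after LPS, with 0 and 5 lower after IL-4. On the list, Ifit1, Ifit2 and Ifit3 had 5, 3 and 3 CREs, of which 0 were selected. The CRE 0.39 kb from the Ifnb1 start held 31 and 30 in UT, 223 and 273 after 30 min of LPS, 472 and 423 at 1 h, 402 and 301 at 2 h and 205 and 179 at 4 h. After IL-4 it held 20 and 12, 10 and 13, 16 and 9, and 19 and 16. Its LPS values were highest at 1 h and its IL-4 values were low at every time. In the CKI arm it was 2.01 ± 0.08 after LPS, while the IL-4 change was -0.21 ± 0.09 (limma adjusted p = 0.046) and was not called. None of the 185 CREs of the IL-4 and STAT6 list, which includes Arg1, Mrc1, Pparg and Irf4, was selected. Of those 185, 67 were lower and 48 higher after LPS, and 89 were higher and 25 lower after IL-4.

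Part of the selected CREs lay close together, but the same count was not made for all CREs, so it cannot show a trait of the selected ones. With gaps under 100 kb they formed 681 loci, of which 453 held a single CRE, 170 held 2 or 3, and 58 held 4 or more and with them 342 of the 1181 (29.0%). The CREs of a locus were counted from its first to its last selected CRE, so the selection raises the shares within loci. The largest stretched over 472.6 kb between Lpp and Tprg, chr16:24592898-25065526, where 21 of 51 CREs were selected. All 21 were higher after LPS in the CKI arm and 17 were lower after IL-4. The locus of Nfkbiz, chr16:55504160-55853898, held 18 of 42, all called for LPS and 8 for IL-4. The formyl peptide receptor locus, chr17:17844744-17902758, held 10 of 12 CREs in 58.02 kb, all higher after LPS with a median change of 2.55 and 8 lower after IL-4. Loci at Hivep2 and Tle3 held 9 each, with 7 and 6 lower after IL-4, and the chemokine locus of Ccl4 and Ccl5 held 8 of 32, with 3 lower after IL-4. Neighbouring CREs may report a single broad domain and are not independent of each other.

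**Figure D3:**
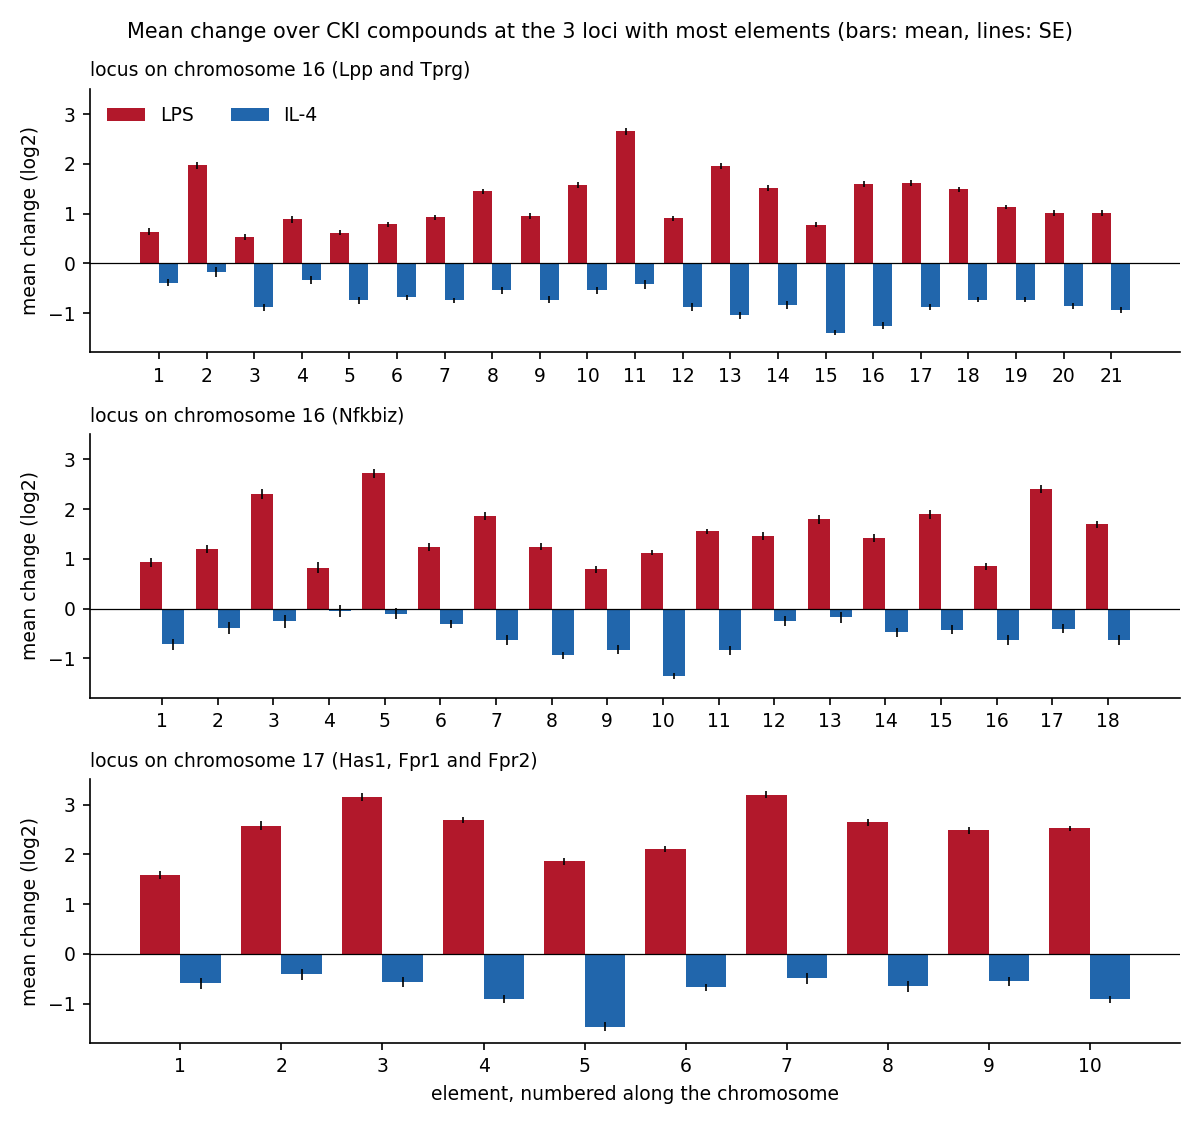
Mean change over CKI compounds (vertical, log2, lines are SE) after LPS (red bars) and IL-4 (blue bars) at the selected CREs of the 3 largest loci, numbered along the chromosome (horizontal). Every bar for LPS is above 0 and every bar for IL-4 below it, with IL-4 changes from -1.46 to -0.41 at the formyl peptide receptor locus.

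The direction of the changes was shared by nearly all CKIs. The median over the 1181 CREs was above 0 after LPS in 57 of 57 compounds, from 0.59 to 1.49, and below 0 after IL-4 in 55 of 58, from -1.35 to 0.21. The exceptions after IL-4 were X396 (0.21), Lenvatinib (0.18) and Omipalisib (0.05), whose IL-4 libraries had a contrast of 8.06, 6.31 and 11.3, against a median of 20.7 over all compounds. The part of contrast in these medians was not tested. Contrast moved with the result between the 6 runs of neighbouring columns in which the compounds were deposited. The run medians after IL-4 were -0.38, -0.54, -0.67, -0.75, -0.97 and -0.52, with contrasts in the IL-4 libraries of 12.8, 20.7, 31.9, 42.2, 43.8 and 14.2, and after LPS they were 0.84, 1.13, 1.08, 1.33, 1.18 and 0.92. The sign was the same in all 6 runs for both stimuli. A typical selected CRE was higher after LPS in 55 of 57 compounds and below its UT value after IL-4 in 48 of 58, and 612 (51.8%) were higher after LPS than after IL-4 in every compound, against 5.08% of all CREs.

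**Figure D4:**
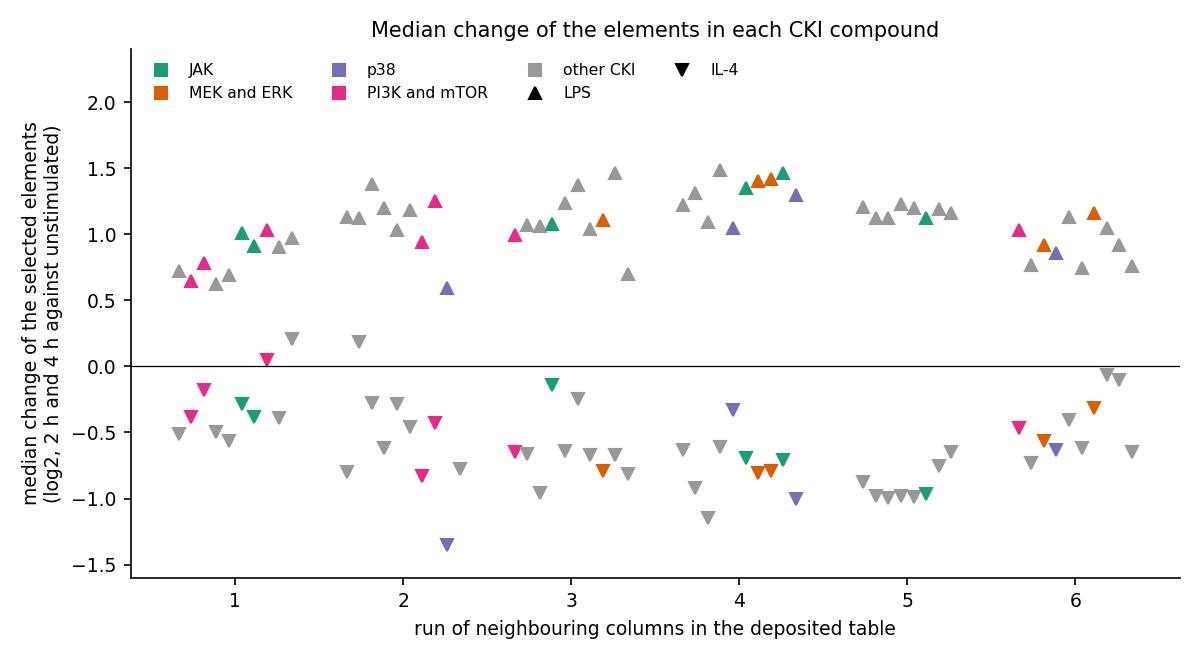
Median change of the 1181 CREs in each CKI compound (vertical, log2), LPS as upward and IL-4 as downward triangles, by the run of neighbouring columns that held the compound (horizontal), with inhibitor families in colour. Every LPS median lies above 0 and 55 of 58 IL-4 medians lie below it.

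Inhibitor families were compared with all other CKIs to ask whether a signaling branch was needed for these changes. Doses differ between the compounds, which limits the comparison to the concentrations used. None of the 1181 CREs passed an adjusted p of 0.05 with limma in any of the 8 comparisons, and over all CREs the share called was 0% in 7 of them and 0.0135% for inhibitors of PI3K and mTOR after IL-4. After LPS, counts at an unadjusted p under 0.05 were 41 for the 6 JAK inhibitors, 108 for the 5 MEK and ERK inhibitors, 154 for the 4 p38 inhibitors and 159 for the 7 PI3K and mTOR inhibitors. The shares of all CREs at that level were 2.61%, 5.09%, 8.40% and 10.3%. After IL-4 the counts were 7, 16, 142 and 193, and the shares of all CREs were 1.02%, 1.41%, 15.6% and 11.2%.

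The median differences between a family and the other CKIs were small beside their errors. After LPS they were 0.08, 0.17, -0.18 and -0.14 for JAK, MEK and ERK, p38, and PI3K and mTOR inhibitors, with median SE of 0.23, 0.25, 0.28 and 0.21. After IL-4 they were 0.05, -0.07, -0.23 and 0.23, with median SE of 0.28, 0.30, 0.33 and 0.26. The medians over all CREs were 0.10, -0.02, -0.01 and -0.04 after LPS and 0.04, -0.02, -0.22 and 0.10 after IL-4. The p38 inhibitors gave a smaller LPS change at 136 of their 154 CREs at the unadjusted level, and with the run of columns as a factor 46 CREs (3.90%) passed the adjusted test, against 1.25% of all CREs and 3.44% of those with an LPS gain and little IL-4 change. Without Talmapimod the p38 medians were -0.06 after LPS and -0.07 after IL-4, and after quantile normalization the IL-4 median was 0.00. The PI3K and mTOR inhibitors gave a less negative IL-4 change at 185 of 193, but their median of 0.23 was 0.04 with the run of columns as a factor and 0.06 after quantile normalization. The JAK inhibitors, whose targets carry the IL-4 signal, varied among themselves in the IL-4 median. It ran from -0.97 for Ruxolitinib, -0.71 for Tofacitinib and -0.69 for Pacritinib to -0.38 for Filgotinib, -0.28 for BMS911543 and -0.14 for Momelotinib. Ruxolitinib lay in run 5, Tofacitinib and Pacritinib in run 4, Momelotinib in run 3, and Filgotinib and BMS911543 in run 1. The medians over all compounds of these runs were -0.97, -0.75, -0.67 and -0.38. Momelotinib was the least negative of the 10 compounds of run 3, which ran from -0.96 to -0.14. The parts of compound and run in these differences were not tested.

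The central 300 bases were scanned on both strands for 9 motifs, and the shares are descriptions without a test. NF-kB (GGGANTTTC) matched in 3.13% of the selected CREs, 4.24% of those with an LPS gain and little IL-4 change, 0.626% of those with the opposite behaviour and 1.83% of all. AP-1 (TGANTCA) matched in 26.8%, 25.4%, 16.5% and 20.2% in the same order. The interferon response motif (GAAANNGAA) matched in 17.8%, 17.4%, 10.9% and 11.5%, and C/EBP (TTGCNNAA) in 20.2%, 16.6%, 15.5% and 14.7%. The 3 motifs tied to LPS signaling and C/EBP were thus all more frequent in the selected CREs than in all CREs. Beside CREs with an LPS gain and little IL-4 change, NF-kB was less frequent and AP-1 and interferon response were about as frequent. The excess of these 3 was therefore not particular to the selected CREs.

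STAT motifs were split by the gap between their arms, since a gap of 4 bases is known to favour STAT6. With a gap of 4 (TTCNNNNGAA) the shares were 6.10% in the selected CREs, 8.31% in those with little IL-4 change, 34.3% in those with the opposite behaviour and 9.21% of all. With a gap of 3 (TTCNNNGAA) they were 9.82%, 11.6%, 12.8% and 9.40%. The selected CREs thus had the lowest share of the gap of 4. PU.1 (GAGGAAG), a factor of the macrophage lineage, matched in 23.1%, 20.6%, 29.2% and 23.4%, RUNX (TGTGGT) in 27.9%, 26.1%, 29.3% and 25%, and MEF2 (CTANNNNTAG) in 5.84%, 5.47%, 6.26% and 5.07%. No motif was found in 20.4% of the selected windows against 27.9% of all. The median GC content was 45.3% against 48.3% for all CREs, and 9.74% of the selected windows were repeat over more than 50% of their length, against 7.34% of all.

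**Figure D5:**
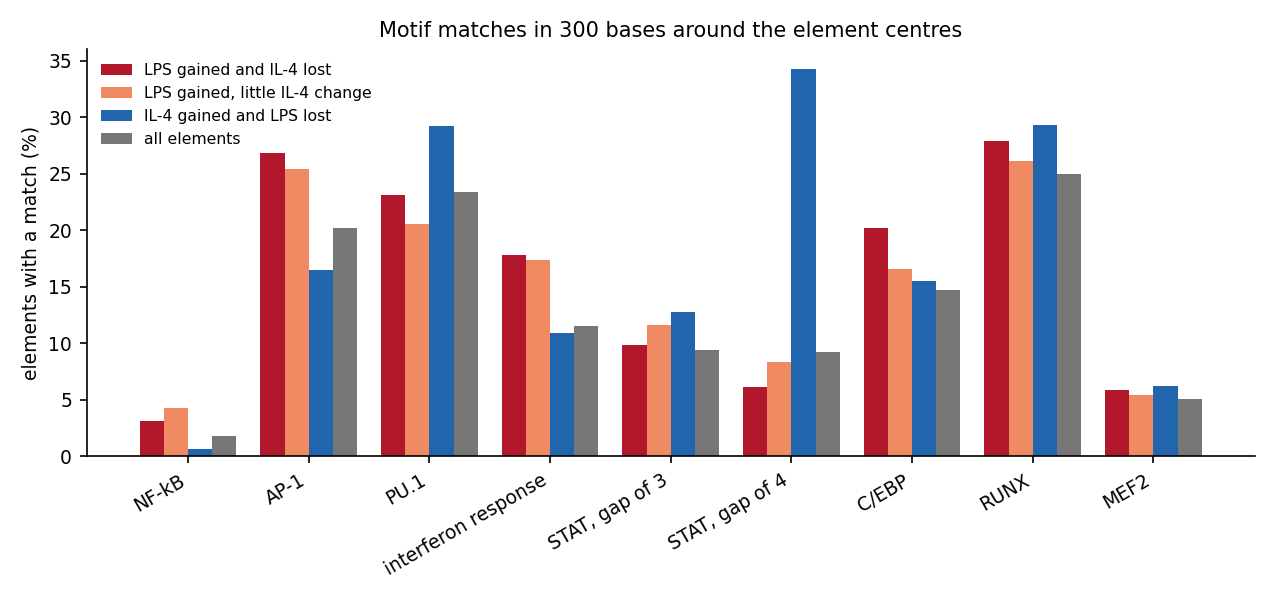
Share of CREs with a match to each of 9 motifs in their central 300 bases (vertical, %) for the selected CREs, 2 comparison groups and all CREs (colours). The STAT motif with a gap of 4 matched in 34.3% of CREs with the opposite behaviour and in 6.10% of the selected CREs.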

How the data were processed

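H3K27ac ChIP-seq was measured in 564 libraries, and groups were taken from the treatment labels. The authors trimmed single-end reads, mapped them to mm10 with ShortStack (the submitters' processing notes also name Bowtie and SAMtools, without versions), counted them around ATAC-seq peaks and scaled libraries on invariant peaks. The deposited values are whole numbers that the authors had normalized, so they were treated as a score, not as raw counts, and no count model was applied. Totals and contrast per library are given in the results. Where the spacing of values gave the worth of 1 read, reads over all CREs were estimated at 2344196 to 4782598 for 9 DMSO libraries and at 171238 to 5202848 for 446 CKI libraries, so the CKI libraries reach lower depth.

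The members and gene lists were chosen with earlier results of these data known. All tests used limma (version 3.58.1, R 4.3.3) on log2(value + 5) with a mean trend, at CREs with a mean of at least 10, with Benjamini-Hochberg adjustment over all CREs tested. A log2 difference on this scale understates the change of low CREs. Calls needed an adjusted p under 0.01 with an absolute log2 difference over 1 in DMSO cells and in the early comparison across CKIs, and over 0.5 in the other comparisons across CKIs, and under 0.05 for families. Across CKIs, each compound gave 1 value. The fits were tested on simulated data. Replicate numbers did not pair the libraries: over 36 pairs of groups the correlation of deviations ran from -0.0873 to 0.0664. No replicate pair was a copy of the other, with r from 0.960 to 0.982.

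CREs were named by a fixed rule: the 12 with the largest separation over CKIs, the 6 with the largest in DMSO cells, up to 8 per gene list, the 3 on each side of each threshold, and up to 6 loci. Other genes are named only in counts. Starts were taken from protein-coding genes of GENCODE M21, and sequence from the RefSeq assembly GRCm38.p6. For uniqueness, 6 stretches of 50 bases per CRE were searched in that assembly. Alternatives covered the pseudocount, the filter on low values, quantile normalization, the replicate block, single libraries or compounds left out, runs of columns and thresholds.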

Additional observations from a re-analysis of the deposited data

Results flagged for a closer look

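The gap between LPS and IL-4 at the selected CREs changed between 30 min and 1 h in DMSO cells, at times that the selection did not use. With limma, the LPS minus IL-4 difference was larger at 1 h for 287 CREs and smaller for 3 of the 1167 tested (adjusted p under 0.01, absolute log2 change over 1, n = 2 libraries a group), against 4.72% and 1.40% of all CREs. It was larger for 14% of CREs with an LPS gain and little IL-4 change, with a median of 0.66 against 0.81 for the selected CREs. Among single CREs, the one near Rybp went from -0.68 ± 0.26 (SE) to 1.63 ± 0.26, and that near Lipg from 2.31 ± 0.24 to 4.22 ± 0.24. Within the inhibitor families, no compound's median change stood apart by Dixon's criterion.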

How the results depend on the processing

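The number of CREs that met the condition was sensitive to how the values were treated. It was 1181 as given, 2448 with a pseudocount of 1, 416 with a pseudocount of 20, 381 after quantile normalization (337 shared with the 1181) and 229 at thresholds of 1.5 and -1.2. Using 1 DMSO replicate at a time gave 1180 and 2104. Over CKIs, a log2 threshold of 1 left 611 CREs called for LPS and 146 for IL-4. The widening between 30 min and 1 h was called at 189 CREs after quantile normalization. Leaving out 1 DMSO library gave 562 to 629 CREs at 30 min, 913 to 991 at 1 h and 195 to 279 for the widening. With the replicate number as a block these counts were 622, 987 and 289, and the block changed none of them by more than 1.5 times. For p38 inhibitors after LPS, 30 CREs passed after quantile normalization (843 of all CREs), 46 with the run as a factor (741 of all) and 0 to 38 with 1 compound left out, the highest without VX702 (954 of all). Leaving out 1 compound gave 0 to 11 for PI3K and mTOR inhibitors after LPS (highest without TG100115), 0 to 6 for p38 inhibitors after IL-4 (highest without PH797804) and 0 to 1 for PI3K and mTOR inhibitors after IL-4, which gave 1 at 4 h alone. The CRE near Gm13275 had an LPS minus IL-4 difference of -2.69 at 1 h in DMSO cells, but 0.16 over CKI compounds and 0.23 there after quantile normalization, both chosen after seeing the data. The other 151 recomputed counts stayed within 1.5 times, and of the values of single CREs 3198 kept their side of the threshold, 75 lost it and 40 gained it. The cause of these shifts was not tested.

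With 2 libraries a group, the selection itself carries the error of the UT pair, which enters both of its criteria. Most CKI groups hold 1 library, so the spread over compounds mixes biological and technical differences. The tests of a change over compounds held no term for the run of columns, though the run medians differed. Their p-values therefore count compounds of a run as independent. Many selected CREs hold values under 50 before stimulation, where a loss is measured on few reads. Family comparisons rest on 4 to 7 compounds at unequal doses, and a missed threshold there does not show equal responses.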
